A study of Drosophila melanogaster with 3 samples.

Results

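Small nuclear RNA (snRNA) genes of Drosophila melanogaster were examined for peaks of Bab1 (Bric-a-brac 1), a transcription factor that binds DNA through a pipsqueak-type domain. The 32 genes with the biotype snRNA were taken from 18164 annotated genes on the main chromosomes of the Ensembl annotation, and they fall into 12 types. There were 7 genes of U5, 6 of U2, 5 of U1, 3 each of U4 and U6 and 2 of 7SK. LU, U7, U11, U12, U4atac and U6atac had 1 gene each. The genes are 71 to 444 bp long, and 16 lie on chromosome 2L, 10 on 3R, 4 on 3L and 2 on X. A gene was said to carry a peak if a peak summit lay in the gene body or in the 1 kb upstream of it.

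Peaks came from chromatin immunoprecipitation and sequencing (ChIP-seq) of whole adult females, of unknown age, from 1 strain labelled bab1-RA (bab1-s)-GFP. This transgenic line makes Bab1 with GFP at the C terminus, and an antibody to GFP was used on sonicated chromatin. The 3 biological replicates form 1 group, so no second condition can be compared, and the tissue in which a site was occupied is not resolved in whole flies. The labels do not give the promoter that drives the fusion protein. Each replicate has a deposited list of 30000 peaks, and so has the pool of the 3. A shorter list of 6896 peaks passed the authors' reproducibility filter (irreproducible discovery rate, IDR), and it is made of the strongest peaks of the pooled list. The signal value of a peak is the authors' and ranks peaks within 1 list only, with rank 1 the strongest. Each replicate is also represented by its own 6896 strongest peaks, called its top list. Read depth is unknown from these lists. Flies without the tag were not analysed here, so occupancy by Bab1 and background of the immunoprecipitation cannot be told apart.

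snRNAs are short nuclear RNAs that work inside ribonucleoprotein particles. U1, U2, U4, U5 and U6 form the major spliceosome, U11, U12, U4atac and U6atac serve the minor spliceosome, U7 acts in 3′ end processing of histone messages, and 7SK RNA holds the elongation kinase P-TEFb inactive. Most of these genes are transcribed by RNA polymerase II, whereas U6, U6atac and 7SK are transcribed by RNA polymerase III. In flies both kinds depend on an upstream element, the proximal sequence element A (PSEA), which is bound by the complex SNAPc, and the polymerase III genes also have a TATA-like element after it.

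The 80 bases before the first base of the gene show what the members have in common. They are given 5′ to 3′ on the strand of the gene for the 5 genes with an IDR peak, for the other U6 genes and U6atac, and for U1, U2, U4 and 7SK relatives. Sequences are from RefSeq in dm6 coordinates, the last base is the one before the gene, and capitals mark the block ATTCNCAA or the TATA-like letters TATAAA or TATATA.
7SKa (chr3R:7474997-7475076, minus strand): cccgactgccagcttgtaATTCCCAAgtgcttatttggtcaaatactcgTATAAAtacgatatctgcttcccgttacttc
U6:96Ac (chr3R:24557135-24557214, plus strand): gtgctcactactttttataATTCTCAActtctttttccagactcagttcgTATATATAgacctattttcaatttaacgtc
U6:96Ab (chr3R:24556612-24556691, plus strand): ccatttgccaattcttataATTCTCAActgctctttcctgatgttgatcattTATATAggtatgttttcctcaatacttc
U6:96Aa (chr3R:24556008-24556087, plus strand): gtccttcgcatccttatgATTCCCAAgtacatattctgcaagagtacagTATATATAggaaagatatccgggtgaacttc
U6atac (chr2L:8389644-8389723, plus strand): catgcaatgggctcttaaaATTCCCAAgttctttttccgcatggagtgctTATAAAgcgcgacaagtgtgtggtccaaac
U1:95Ca (chr3R:23859631-23859710, minus strand): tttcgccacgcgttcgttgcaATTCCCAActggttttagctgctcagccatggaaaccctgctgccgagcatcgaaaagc
U1:95Cb (chr3R:23827790-23827869, plus strand): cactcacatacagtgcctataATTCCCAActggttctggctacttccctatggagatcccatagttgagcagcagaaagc
U2:34ABb (chr2L:13215759-13215838, plus strand): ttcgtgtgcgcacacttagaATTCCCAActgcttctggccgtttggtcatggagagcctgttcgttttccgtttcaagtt
U2:38ABb (chr2L:19812566-19812645, plus strand): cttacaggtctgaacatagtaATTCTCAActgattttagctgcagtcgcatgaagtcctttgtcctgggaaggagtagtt
U4:39B (chr2L:21215179-21215258, minus strand): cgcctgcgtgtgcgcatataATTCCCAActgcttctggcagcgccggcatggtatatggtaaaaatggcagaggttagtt
U4:38AB (chr2L:19810654-19810733, plus strand): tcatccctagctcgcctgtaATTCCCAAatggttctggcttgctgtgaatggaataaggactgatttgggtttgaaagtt
7SKb (chr3R:23432789-23432868, plus strand): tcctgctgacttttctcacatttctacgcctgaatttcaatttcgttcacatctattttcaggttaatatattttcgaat

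The block ATTCNCAA, where N is any base, and the letters TATATA were chosen after the sequences had been seen. The block lay on the gene's strand within 100 bp of the start in 31 of 32 members (96.9%), against 227 of 18164 genes (1.25%). Its first base was at −65 to −56, with a median of −59, counted back from −1 just before the gene. The variable base N was C in 26 genes, as in 7SKa and U1:95Ca, and T in 5, as in U6:96Ac. 7SKb was the member without the block. A TATA-like sequence on the gene's strand within 100 bp was found at 7SKa, the 3 U6 genes and U6atac, starting 28 to 31 bp before the gene, and at none of the 26 polymerase II genes. In the same window 13.8% of all genes hold TATAAA and 8.65% hold TATATA. All 5 genes with an IDR peak hold the block, and so do 11 of the 12 genes without a summit in any list. These matches describe letters and not occupied sites.

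Of the 32 snRNA genes, 5 (15.6%, exact 95% confidence interval 5.28% to 32.8%) carried an IDR peak, whereas 37.8% of all genes did. These were 7SKa, U1:95Ca, U2:34ABb, U4:39B and U6:96Ac, 1 gene of each of 5 types, and no U5 gene was among them. snRNA genes are short targets. Among the 2382 genes no longer than 444 bp the share was 14.7%, close to that of the snRNA genes, and an IDR peak was found at 90 of 290 tRNA genes and at 65 of 269 snoRNA genes (24.2%). The pooled list reached 18 snRNA genes (56.2%, interval 37.7% to 73.6%), against 60.5% of all genes, 36.4% of the short genes, 70.0% of tRNA genes and 52.4% of snoRNA genes. The intervals cover counting error only and take no account of genes that are neighbours.

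The top lists of replicates 1, 2 and 3 held peaks at 5, 4 and 7 snRNA genes, a mean of 5.33 ± 1.53 (SD, n = 3). All genes gave 36.4%, 37.0% and 36.2% in the same lists, against 15.6%, 12.5% and 21.9% of the snRNA genes. In every replicate the snRNA share was below that of all genes, whereas it was above that of the short genes (13.2%, 14.5% and 15.1%) in replicates 1 and 3 and below it in replicate 2. The whole replicate lists held peaks at 16, 16 and 14 snRNA genes (15.3 ± 1.15, SD, n = 3), where all genes gave 59.7%, 59.3% and 60.4%. The short genes gave 37.2%, 36.6% and 37.3%, below the snRNA shares, of which the lowest was 43.8% in replicate 3. There were 4 members in all 3 top lists (12.5%, against 28.5% of all genes), 7SKa, U2:34ABb, U4:39B and U6:96Ac. U1:95Ca was in those of replicates 1 and 3, and U5:63BC and U6:96Ab were in that of replicate 3. The labels call the replicates biological but do not say whether they were separate cultures.

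**Figure D1:**
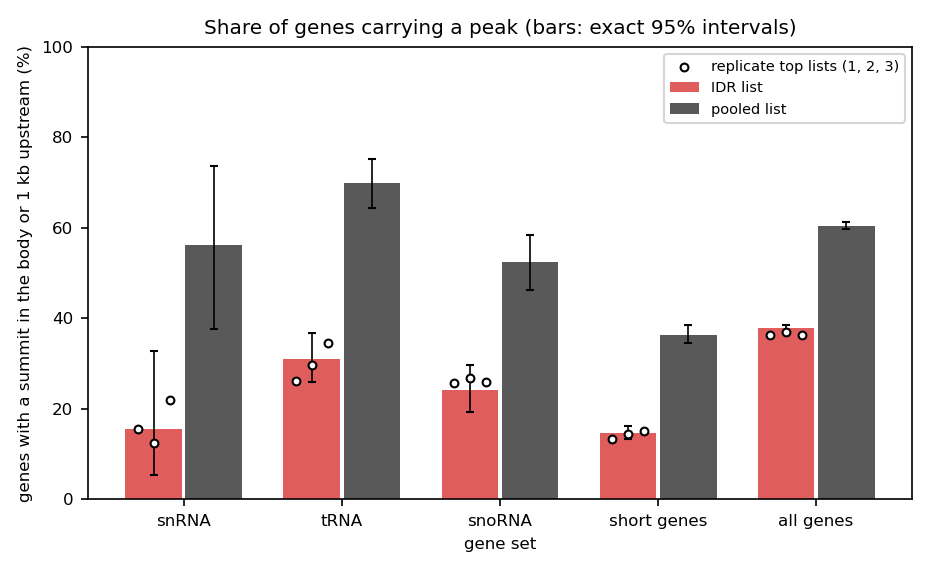
Share of genes in each set (x axis) with a summit in the gene body or 1 kb upstream (y axis, percent), for the IDR list and the pooled list, with exact 95% intervals as error bars and the 3 replicate top lists as open circles. The snRNA bar stands at 15.6% for the IDR list, near the short genes (14.7%) and below all genes (37.8%).

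The 6 snRNA genes with a protein-coding transcription start site (TSS) within 1 kb of the gene body were U6atac, U2:34ABa, U2:34ABb, U5:35D, U11 and 7SKa. For 7SKa that TSS was 772 bp from the body but 1215 bp from the gene's start. Of these 6, 2 carried an IDR peak, and of the other 26, 3 did (11.5%, interval 2.45% to 30.2%). Among short genes the shares were 27.6% of the 789 with such a TSS and 8.29% of the 1593 without, and among all genes 37.8%. Without such a TSS the shares were 28.1% of 210 tRNA genes and 6.11% of 180 snoRNA genes. Over the 6 IDR peaks at members, the nearest TSS of any gene was the snRNA gene's own. All 6 summits lay within 250 bp of the gene's first base, 3 upstream and 3 inside the gene. The pooled list was more spread, with 17 of 26 gene and summit pairs within 250 bp and positions from −975 to 189 bp. Neither count is given here for other genes, so closeness to the start is not shown to set snRNA genes apart. The strongest peak of each of the 5 genes with an IDR peak had a median rank of 4065 of 6896. The medians were 2778 for all genes with an IDR peak, 3984 for tRNA genes and 1915 for snoRNA genes. Longer genes can hold several summits, of which the strongest was taken, so these medians are not matched for gene length.

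**Figure D2:**
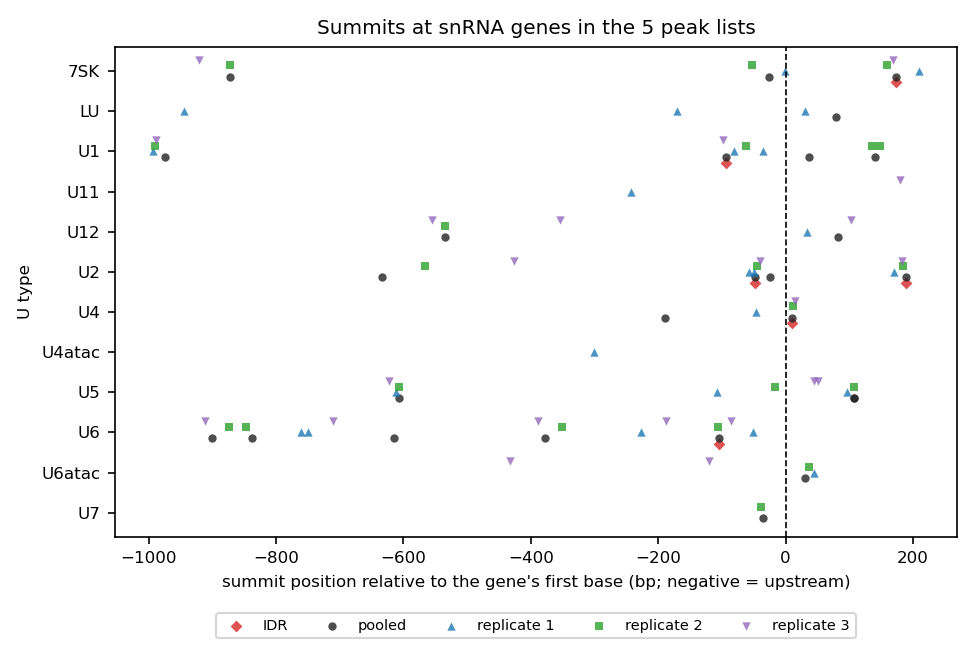
Position of each summit relative to the first base of its snRNA gene (x axis, bp, negative values upstream) by type (y axis), in the IDR, pooled and 3 replicate lists. The IDR summits lie from −105 to 189 bp, whereas the pooled and replicate summits also fall farther upstream.

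7SKa, the gene of 7SK RNA, had the strongest peak of the family. Its IDR peak (chr3R:7474577-7475101) had a signal value of 628 and rank 921, with the summit 174 bp inside the gene. In replicates 1, 2 and 3 the signal values were 188, 243 and 209, at ranks 939, 1614 and 406. The summits lay at 209, 159 and 169 bp (179 ± 26.5, SD, n = 3), so all 3 lists placed it inside the gene and among their strongest peaks. A stronger IDR peak (rank 87) lay past the end of 7SKa, 193 bp from the TSS of the protein-coding gene CG1142. That TSS was 1041 bp from the summit inside 7SKa. The part of the neighbouring peak in the value at 7SKa was not tested. The pooled list also had summits 26 and 873 bp before the gene. The second gene of the type, 7SKb, was 46.9% identical to 7SKa in the gene, near the 46.2% of their upstream 200 bases. 7SKb had no summit in any list, the nearest pooled one being 17147 bp away.

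U6 RNA forms part of the catalytic centre of the spliceosome, and its 3 genes lie side by side on 3R with identical gene sequences. They are therefore told apart only by what surrounds them, and the upstream 200 bases are at most 54.6% identical. U6:96Ac had an IDR peak with the summit 105 bp before the gene (chr3R:24556984-24557187, signal 283, rank 4297), the side that holds its block and TATA-like letters. The replicates gave signals of 67.5, 133 and 67.6 at ranks 6237, 4981 and 4788, with summits 51, 106 and 86 bp before the gene. All 3 are top-list peaks, and all 3 summits lie on the upstream side. A second IDR peak (signal 233, rank 5734) lay 18 bp past the end of the gene, outside the rule, and was in the top lists of replicates 2 and 3 but at rank 12136 in replicate 1. U6:96Ab had its best pooled summit at −377 bp (rank 14623), and U6:96Aa at −837 bp (rank 23308). The summit of rank 14623 also lay 121 bp past the end of U6:96Aa, outside the rule for that gene. The nearest protein-coding TSS, that of Esyt2, was 7071 bp or more from every U6 gene.

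U2 RNA pairs with the branch point of introns. Of its 6 genes, U2:34ABb had 2 IDR peaks, with summits at −48 bp (chr2L:13215579-13216002, signal 294, rank 4065) and 189 bp, which is 2 bp before the gene's end (chr2L:13215816-13216239, signal 231, rank 5779). The upstream summit was at −49, −45 and −40 bp in replicates 1, 2 and 3, with signals of 84.2, 122 and 92.0 at ranks 4510, 5695 and 2688. Its position varied by 4.51 bp (SD, n = 3), the smallest spread among the 6 IDR peaks at members. The other summit had signals of 72.2, 67.1 and 65.2 at ranks 5695, 12169 and 5098, so it was outside the top list of replicate 2. The TSS of kek4, a gene of the Kekkon family of transmembrane proteins, was 441 bp from the upstream summit, and its part in these peaks was not tested. U2:34ABa (pooled rank 21332, −24 bp) and U2:34ABc (pooled rank 25609, −634 bp) had no IDR peak, although U2:34ABc has the same gene sequence as U2:34ABb. A stronger pooled summit (rank 12109) lay just past the end of U2:34ABa, outside the rule. U2:14B, U2:38ABa and U2:38ABb had no summit in any list.

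U6:96Ac and U2:34ABb each had a pair of IDR summits near both ends of the gene. In the pooled list U2:34ABa also had summits near both ends, just before its start (rank 21332) and just past its end (rank 12109). The IDR summits of a pair were 229 bp apart at U6:96Ac and 237 bp apart at U2:34ABb, and the replicates gave 201, 251 and 203 bp and 272, 229 and 222 bp. Of all IDR summits, 787 of 6896 (11.4%) had another within 300 bp, and no neighbouring pair was closer than 199 bp.

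**Figure D3:**
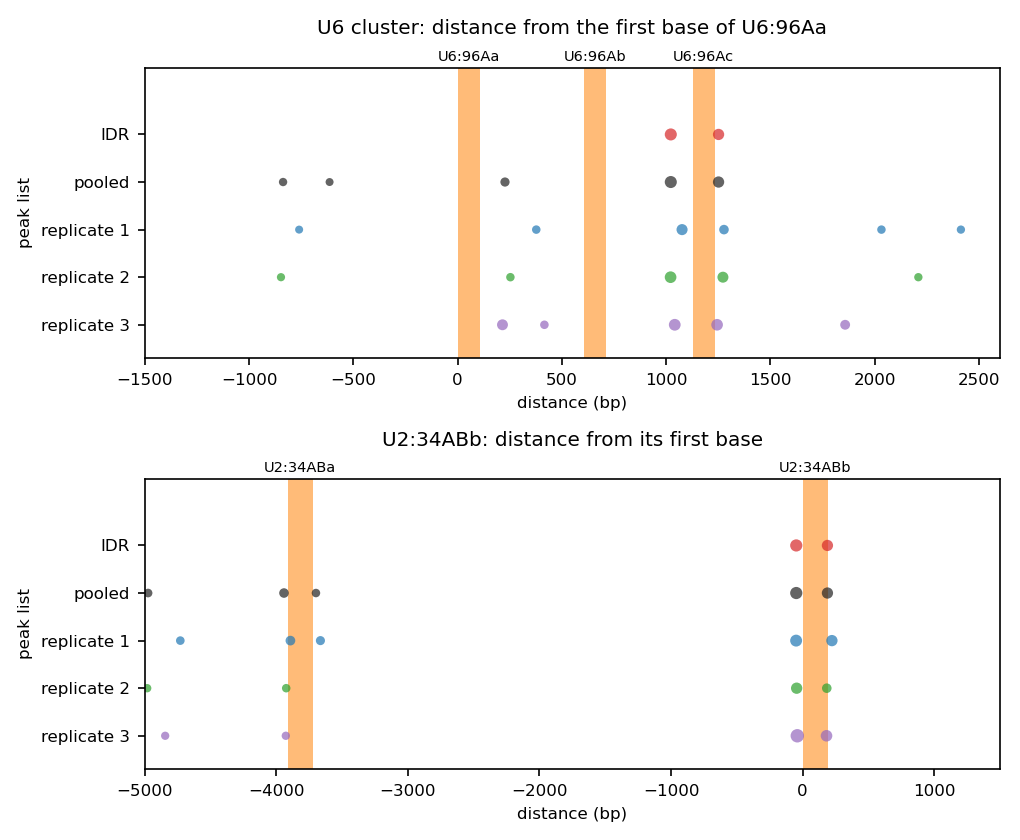
Summits of each list (y axis) along the U6 cluster and the region of U2:34ABb (x axis, bp from the first base of U6:96Aa and of U2:34ABb), with gene bodies shaded and larger points for stronger ranks. The IDR summits lie on either side of U6:96Ac, 229 bp apart, and at both ends of U2:34ABb, 237 bp apart.

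U1 RNA pairs with the 5′ splice site. U1:95Ca had an IDR peak with the summit 94 bp before the gene (chr3R:23859607-23859823, signal 277, rank 4469). In replicates 1, 2 and 3 the signals were 95.5, 87.5 and 93.3, at ranks 3635, 8892 and 2617, and the summits lay 81, 62 and 98 bp before the gene. Replicate 2 gave the weakest rank, outside its top list, and the gene no longer counted when replicate 1 or replicate 3 was left out and peaks had to be in the top lists of both others. The nearest protein-coding TSS, of Pli, was 30328 bp from the summit. U1:95Cb has an identical gene sequence and its block starts at −59 as that of U1:95Ca does, yet neither it nor U1:95Cc had a summit in any list. U1:82Eb (rank 9481, −975 bp) and U1:21D (rank 21434, 36 bp) had pooled summits. U1:82Eb also had a weaker pooled summit 141 bp into the gene (rank 19001). Replicates 1 and 2 had summits at −35 and 135 bp, whereas replicate 3 had only 1 in the window, at −988 bp.

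U4 RNA pairs with U6 before splicing. U4:39B had an IDR peak at its start (chr2L:21215079-21215243, signal 348, rank 2954), with the summit 10 bp inside the gene and CG8679, 3376 bp away, as the nearest protein-coding TSS. Signals of 102, 137 and 121 at ranks 3231, 4794 and 1461 put it in all 3 top lists. The summit was at −47 bp in replicate 1 and at 11 and 14 bp in replicates 2 and 3, so replicate 1 alone placed it upstream. U4:38AB, 94.4% identical in the gene, and U4:25F had no summit in any list.

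U5 RNA holds the exons during splicing. None of its 7 genes had an IDR peak. U5:63BC came closest by rank, with a pooled summit 108 bp into the gene (signal 170, rank 8545), and the nearest replicate summits, at 96, 108 and 44 bp, had signals of 31.3, 84.9 and 60.9 at ranks 15877, 9235 and 5708. Replicate 1 also had a summit at −108 bp (signal 53.9, rank 8329). U5:35D had a pooled summit at −607 bp (rank 9067), and an IDR peak 450 bp past its end lay 29 bp from the TSS of ND-B17, a gene of respiratory complex I. U5:23D had a pooled summit in the gene (rank 21482). U5:14B, U5:34A, U5:38ABa and U5:38ABb had none in the window. A pooled summit (rank 25609) lay 221 bp past the end of U5:34A, outside the rule, and was counted at U2:34ABc. The summits of replicates 2 and 3 at U2:34ABc (−566 and −427 bp) also lay past that end of U5:34A.

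Each of the 6 types with a single gene had a summit in some list, and none had an IDR peak. U12 (rank 16738), U6atac (24149), U7 (15813) and LU (20196) had pooled summits, and U11 and U4atac had summits in replicate lists only, at rank 27141 or weaker. Of the 13 members with a pooled but no IDR peak, 6 were found in all 3 whole replicate lists, U1:82Eb, U12, U5:35D, U5:63BC, U6:96Ab and U6atac. Among all snRNA genes, 11 (34.4%) were in all 3 whole lists, against 52.8% of all genes. The 13 had ranks from 8545 to 25609 with a median of 20196. For 7 of them the strongest pooled summit lay within 250 bp of the start, a count not given here for other genes.

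**Figure D4:**
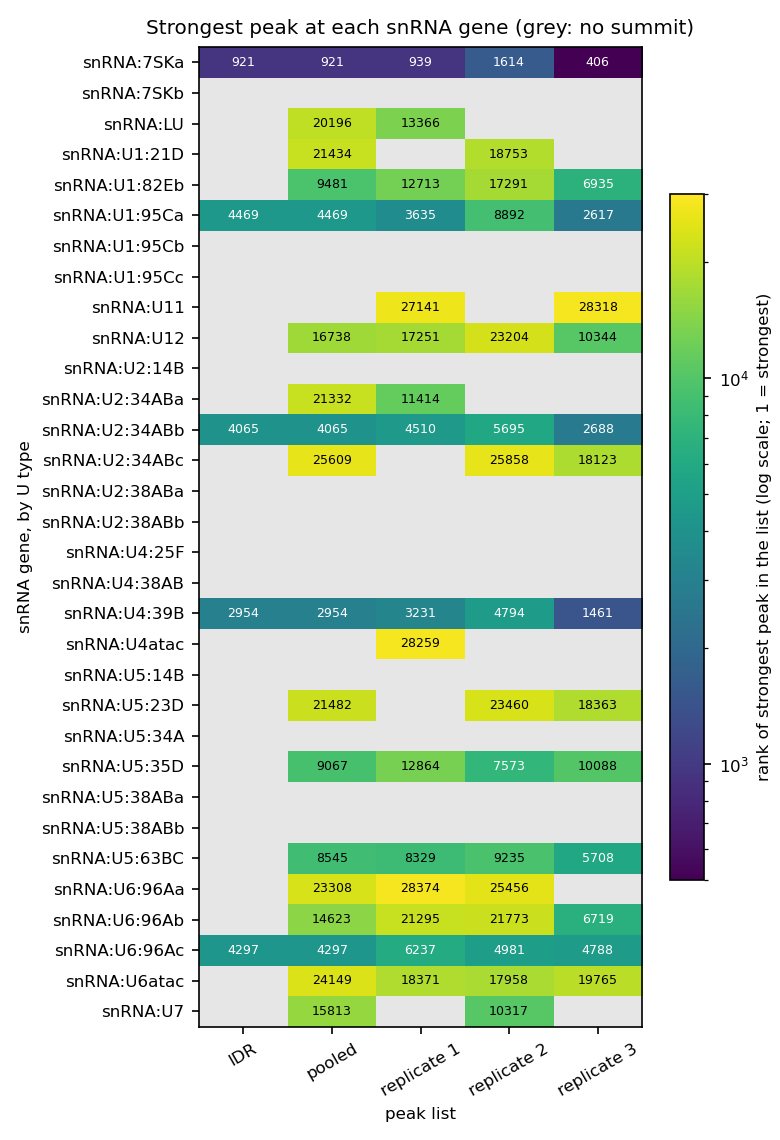
Rank of the strongest peak at each of the 32 snRNA genes (rows) in the IDR, pooled and replicate lists (columns), coloured on a log scale, with grey where no summit lay in the window. The 5 genes with an IDR peak hold ranks of 921 to 4469 there, and 12 genes are grey in all lists.

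Grouped by polymerase, 2 of 6 polymerase III genes and 3 of 26 polymerase II genes had an IDR peak, and 5 of 6 and 13 of 26 had a pooled peak. The short genes gave 14.7% and 36.4% in these lists, and all genes 37.8% and 60.5%. All but 7SKb of the polymerase III genes thus had a summit in the pooled list. 7SKb is counted among them by its type, although it has neither the block nor the TATA-like letters. The 3 U6 genes are neighbours and U6:96Ab and U6:96Ac share a pooled summit, so the 6 are not independent.

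Clustered genes of the 38AB region were free of summits. U4:38AB, U5:38ABa, U2:38ABb, U2:38ABa and U5:38ABb lie together on 2L, and none of the 5 had a summit in the IDR, pooled or replicate lists. The nearest pooled summit was 9463 bp from any of these genes and the nearest IDR summit 14851 bp. The pair U2:14B and U5:14B on X was also without summits, with pooled ones 8802 and 9548 bp away. In 24 members the symbol names a numbered section of the polytene chromosome map, and these fall into 12 sections, 5 of them with more than 1 member. An IDR peak was found in 3 of those 5, in each case at a single gene, which was 1 of 4 in section 34, 1 of 3 in section 95 and 1 of 3 in section 96. Of the 18 members with another member within 10 kb, 10 had no summit in any list, and of the 14 others 2 had none. No summit of any list lay in the window for 12 of 32 snRNA genes (37.5%), 32.0% of all genes and 50.8% of the short genes.

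Copies with like sequence limit what reads can show, because reads that fit several places may be dropped or shared, and how such reads were handled is not stated in the labels or file listings. The share of sequences of 31 bases found once in the genome had a median of 0% in the bodies of the 5 genes with an IDR peak, 35.5% for the 13 with a pooled peak only and 28.1% for the 12 without any peak. In the 1 kb upstream the medians were 100%, 100% and 92.0%. The lowest values were at U5:34A (31.2%), U5:38ABa (56.3%) and U5:38ABb (56.6%), all without a peak in the window. Within 200 bp upstream the share was 82.9% or more at every member. The part of repeated sequence in the absence of peaks was not tested.

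**Figure D5:**
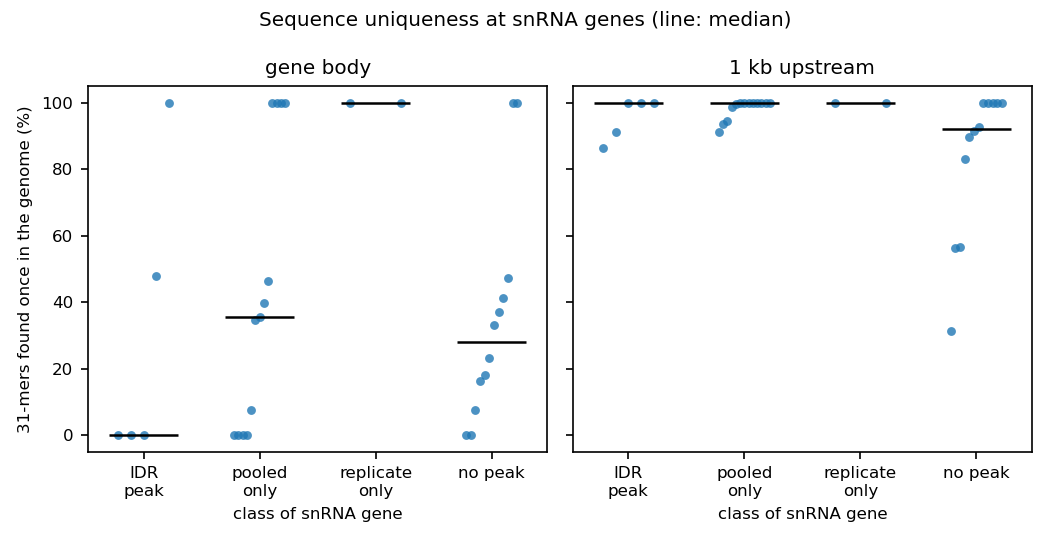
Share of 31-base sequences found once in the genome (y axis, percent) in the gene body and in the 1 kb upstream, for members by class (x axis), with 1 point per gene and a line at the median. Gene bodies with an IDR peak have a median of 0%, and the lowest upstream values, down to 31.2%, belong to genes without a peak.

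A few common promoter motifs were also counted in the 300 bp upstream of members, on both strands. TATCGATA, the DNA replication-related element, was found in 0 of 32 members against 6.96% of genes, and CACGTG, the E-box, in 0 against 3.43%. GAGAG, part of the GAGA factor site, was found in 8 (25.0%) against 28.5%, and TATAAA in 17 (53.1%) against 45.9%.

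Genes of the proteins that make, process or bind snRNAs were listed from background knowledge. Of 58 listed symbols, 55 matched the annotation, and 43 of these (78.2%) carried an IDR peak, against 44.3% of protein-coding genes and 37.8% of all genes. The count is a description, and for many of these peaks the nearest TSS is that of another gene. In SNAPc, which binds the PSEA, Pbp49 (signal 363) and Pbp95 (271) had a peak, 47 bp from the TSS of Pabp2 and 62 bp from that of CG10435, and Pbp45 had none. All 3 genes of polymerase III initiation had one, Bdp1 (1255, nearest CG6565), Brf (1084, nearest sds22) and Trf (282, at its own TSS). Of 14 Integrator genes, whose complex cleaves the 3′ ends of polymerase II snRNAs, 13 had a peak and IntS3 had none. The strongest were at IntS6 (1083, nearest Rtel1), IntS11 (851), IntS4 (681) and IntS9 (496), the last 3 at their own TSS.

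In the little elongation complex, which acts in snRNA transcription, Ice2 (471, at its own TSS) and Ell, annotated as Su(Tpl) (346, nearest a non-coding RNA), had a peak and Ice1 had none. Of 12 matched Sm and Lsm genes, whose proteins form rings on snRNAs, 10 had one, led by SmD3 (442), SmF (376), SmG, annotated as SNRPG (353, nearest mthl1), and LSm7 (347). Of 9 genes of snRNP-specific proteins, 7 had one, led by snRNP-U1-C (560), Brr2 (478), U2A (357) and Prp3 (323, nearest Mi-2). The 7SK particle genes Larp7 (586), bin3 (484) and Hexim (461) all had one. The last list joins the SMN complex, which assembles snRNPs in the cytoplasm, with the snRNA export adaptor Phax and the import adaptor Snup. It had a peak at 3 of 8 genes, Smn (409), Snup (283) and Gem5, annotated as rig (242, nearest maf-S). The Snup summit lay 73 bp from both Snup's own start and the TSS of CG42304.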

How the data were processed

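The data were ChIP-seq peaks of Bab1-GFP females in 3 biological replicates, which form 1 group per the labels. The authors deposited peaks on dm6 in narrowPeak layout, with a signal value and a −log10 q-value for each peak. The lists were called against 1 control library per the deposited file listings, which was not used here. For the aligner, the caller and the IDR cutoff, names and versions were not given in the sources used here. Ranks use the signal value.

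Genes came from Ensembl release 115 (BDGP6.54), without transposable elements and the Y chromosome, where no peak lay. Python 3.11.15 with pandas 2.3.3, SciPy 1.17.1 and Biopython 1.88 was used. Assignment of summits was tested on simulated data. Coordinates are 1-based. Identity was from global alignment. No test was run, because there is 1 group. The alternatives were other windows around the gene, overlap of the whole peak, shorter or longer lists, other distances to a protein-coding TSS, 1 gene per shared peak and each replicate left out. Members, lists and comparisons were chosen with earlier results of these data known. Every member with an IDR peak was named, others by type, and the 4 strongest genes of each protein list. Replicates left out keep IDR peaks found in the top lists of both others. LSm2, LSm5 and LSm6 had no match. The sequence of 1 gene body is not reported here.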

Additional observations from a re-analysis of the deposited data

How the results depend on the processing

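With summits counted in the gene body only, 3 snRNA genes had an IDR peak, 10 had a pooled peak, the top lists held 2.33 on average, 3 IDR peaks counted, and 1 gene had an IDR peak without a protein-coding TSS within 1 kb. In the stronger 50% of each list these values were 2, 9, 2.33, 2 and 1. Whole replicate lists held 15.3 on average. Leaving out 1 replicate gave 4 to 5 genes with an IDR peak, 4 to 6 such peaks, 2 to 3 such genes without a protein-coding TSS within 1 kb and a top-list mean of 4.50 to 6. U1:95Ca was lost without replicate 1 or 3. The cause was not tested, except that narrower windows and shorter lists hold fewer summits by construction. Windows of 500 bp or 2 kb upstream, 250 bp on either side of the start, overlap of the whole peak and 1 gene per shared peak each gave 5 genes with an IDR peak. Added after seeing the data, a window 250 bp past the gene's end also gave 5 genes, with 7 peaks, and TSS distance taken from the gene start gave 4 genes without a protein-coding TSS within 1 kb. No paired analysis was possible because there is 1 group. With 32 genes, 1 gene is 3.12% of the family, so small differences in share cannot be seen. The pooled list and each replicate list hold exactly 30000 peaks. Absence from such a list thus means only that no summit was among its 30000 peaks. Read depth is unknown, and its part in the weak end of the lists was not tested.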
